A study of Mus musculus with 8 samples.

Results

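The interferon regulatory factors (IRFs) described here are the genes Irf1, Irf2, Irf3, Irf4, Irf5, Irf7, Irf8 and Irf9, chosen by name and not by any measured value. They are 8 of the 18125 genes in the deposited tables, and all 8 were listed above 0 in all 8 libraries. IRFs are transcription factors that share a DNA-binding domain and bind GAAA repeats in the promoters of interferon-responsive genes. IRF1 and IRF8 are turned on by IFN-gamma. IRF3, IRF5 and IRF7 are activated in their protein form by kinases downstream of nucleic acid sensors and Toll-like receptors, and IRF9 is part of ISGF3, the complex that drives antiviral genes. IRF4 takes part in the IL-4 programme of macrophages, and IRF2 occupies many IRF1 sites as an antagonist.

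The series asks how macrophages that lack creatine uptake change their transcriptome when polarized. It holds 1 RNA library per group, from cells of C57BL/6 mice, either wild-type (WT) or Slc6a8-/y, called knockout (KO) here, which lack the X-linked creatine transporter Slc6a8. Peritoneal macrophages, drawn 3 to 4 days after 1 ml of 4% thioglycollate, were left untreated or given IFN-gamma (10 ng/mL, 12 hours). Bone marrow-derived macrophages, grown for 5 days in 10% M-CSF, were left untreated or given IL-4 (10 ng/mL, 6 hours). The cell types thus differ in source, cytokine and time at once, and the labels leave unsaid how many animals stand behind a library and whether they were pooled.

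Libraries held 10812678 to 11065427 expected counts in peritoneal and 20553654 to 21221526 in bone marrow-derived macrophages. Slc6a8 stood at 39.52 to 163.54 FPKM in the 4 WT and 0.18 to 1.71 FPKM in the 4 KO libraries, which matches the labels. All 7 macrophage markers (Adgre1, Cd68, Csf1r, Itgam, Lyz2, Mertk and Fcgr1) were at 1 FPKM or more in every library. Summed markers of B cells reached 5.75 FPKM, of T and NK cells 3.08 (3 of 7 matched), of dendritic cells 2.98, of neutrophils 9.83 and of eosinophils, basophils and mast cells 10.35. Those of fibroblasts and mesothelium summed to 79.1 to 125.3 FPKM in peritoneal and 171.13 to 374.18 FPKM in bone marrow-derived libraries. These are bulk samples, so a change in the share of a cell type and a change of RNA per cell cannot be told apart.

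FPKM is the authors' level per length of transcript and per size of library, so levels of different genes can be set side by side. No further scaling between libraries is recorded for it, also where the 2 cell types are set side by side. No single pair of libraries carries a test. The tests come from edgeR quasi-likelihood fits with a stimulus term and a genotype term, run on the 4 libraries of a cell type with 1 residual degree of freedom. A gene "rose" or "fell" when its Benjamini-Hochberg adjusted p over all genes tested was under 0.05. SEs were derived from the estimate and its F statistic. With 1 library per combination of genotype and stimulus, the residual of a gene is the difference between its KO and WT responses, noise included. A gene whose responses differ between genotypes is thus given a larger residual. Since no label says that libraries came from separate animals, that noise may be technical, and the p-values do not measure spread between animals.

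The loci lie, on GRCm38.p6, at chr11:53770014-53778374 (Irf1), chr8:46739745-46847458 (Irf2), chr7:44997648-45002848 (Irf3), chr13:30749233-30766981 (Irf4), chr6:29526130-29541869 (Irf5), chr7:141263183-141266499 (Irf7), chr8:120736358-120756694 (Irf8) and chr14:55603985-55610030 (Irf9), and all are protein-coding. Their promoters were searched for elements known from interferon-responsive genes. The RefSeq promoter table (GRCm38.p6, the submitters' build being mm10) had windows for all 8 members, 11 windows in all. Each window of 300 bases, of which the 250 bases upstream of the start site are printed here, was searched on both strands. The motifs were the interferon-gamma-activated site, GAS (TTCNNNGAA, the same on both strands), and an IRF-binding element (GAAA, any 2 bases, GAAA, or the reverse complement). Over all 32851 windows, 8.3% held a GAS and 3.44% an IRF element. Among the members, windows of Irf1, Irf2 and Irf8 held a GAS and the window of Irf2 an IRF element, and these 3 promoters are printed 5′ to 3′ with the matches in capitals. The 2 motifs do not overlap in any of them.
Irf1, chr11:53769764-53770013, plus strand: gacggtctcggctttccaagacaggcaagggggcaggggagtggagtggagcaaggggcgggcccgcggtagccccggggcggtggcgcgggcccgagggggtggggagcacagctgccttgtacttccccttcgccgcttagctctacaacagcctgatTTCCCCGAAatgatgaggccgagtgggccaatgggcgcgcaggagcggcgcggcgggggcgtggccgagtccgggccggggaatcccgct
Irf8, chr8:120736108-120736357, plus strand: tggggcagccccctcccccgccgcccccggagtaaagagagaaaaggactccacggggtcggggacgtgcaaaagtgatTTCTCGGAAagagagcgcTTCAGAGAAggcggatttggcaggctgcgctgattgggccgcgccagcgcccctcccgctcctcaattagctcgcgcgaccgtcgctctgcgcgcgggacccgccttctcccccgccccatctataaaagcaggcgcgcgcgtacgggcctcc
Irf2, chr8:46739495-46739744, plus strand: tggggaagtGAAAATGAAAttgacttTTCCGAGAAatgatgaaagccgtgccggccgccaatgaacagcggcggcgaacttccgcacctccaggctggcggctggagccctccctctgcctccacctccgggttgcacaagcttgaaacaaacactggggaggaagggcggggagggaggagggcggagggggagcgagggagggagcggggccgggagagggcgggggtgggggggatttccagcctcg
The Irf1 match, TTCCCCGAA, runs from base -90 to -82, counted from the start site. Irf8 has 2 matches in its first window, TTCTCGGAA at -171 to -163 and TTCAGAGAA at -153 to -145. Irf2 has TTCCGAGAA at -224 to -216 beside GAAAATGAAA at -241 to -232. The second windows of Irf1 and Irf8 and the windows of Irf3, Irf4, Irf5, Irf7 and Irf9 held neither sequence in these letters. A match describes the sequence and is not evidence of binding, and Irf7, which rose with IFN-gamma below, is among the genes without one.

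Irf1 and Irf8 dominated the family after IFN-gamma in both genotypes. In WT peritoneal macrophages the 8 genes summed to 289.95 FPKM before and 1525.08 FPKM after IFN-gamma, and in KO ones to 255.16 and 1763.81 FPKM. Irf5 made up 49.4% and 46.2% of that sum in the untreated WT and KO cells. After IFN-gamma, Irf1 and Irf8 held 38.0% and 38.7% in WT and 37.4% and 35.9% in KO cells, and Irf5 15.7% and 13.8%. In bone marrow-derived macrophages the sum was 470.65 and 482.92 FPKM untreated and 505.61 and 592.81 FPKM with IL-4, in WT and KO cells. Irf5 led there in all 4 libraries with 39.2% to 43.1%.

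**Figure D1:**
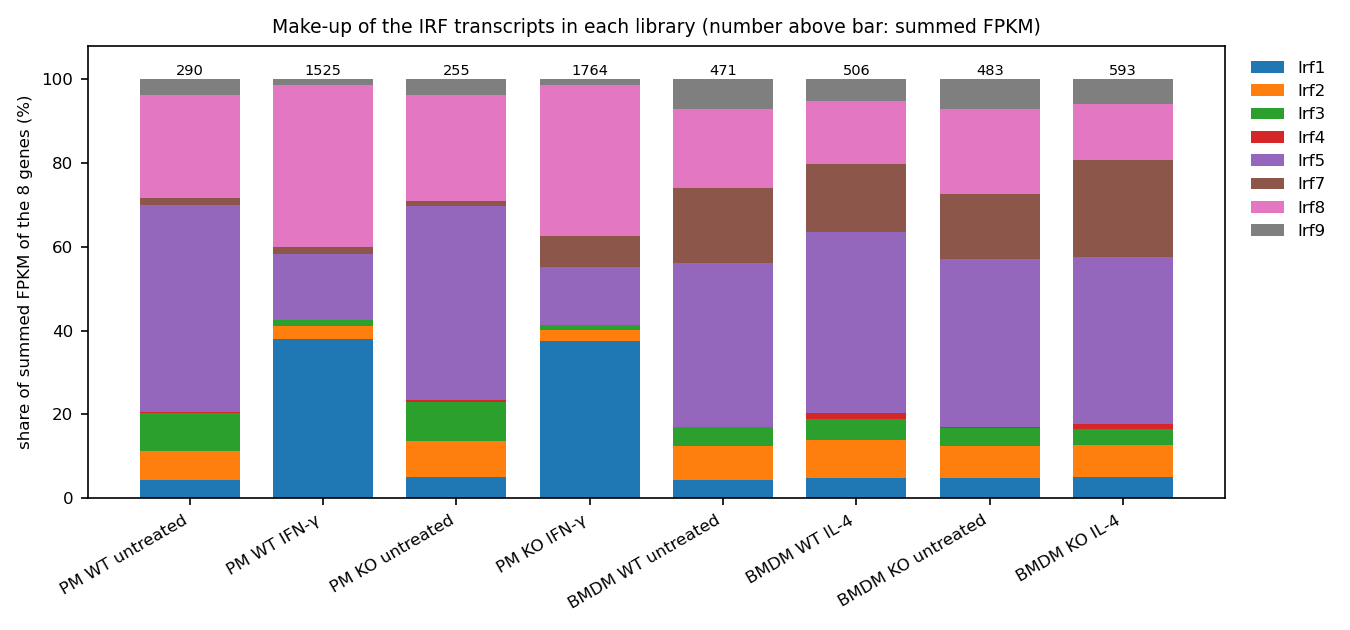
Share of each IRF gene in the summed FPKM of the 8 genes (vertical axis, percent) in each library (horizontal axis), 1 library per bar, with the sum above the bar. Irf1 and Irf8 fill most of both IFN-gamma bars, and Irf5 is the largest part of the other 6.

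Irf1, an activator of MHC class I, class II transactivator and nitric oxide synthase genes, was the family's strongest responder to IFN-gamma. It stood at 12.73 FPKM in untreated WT and 13.06 FPKM in untreated KO peritoneal macrophages, and at 580.16 and 660.46 FPKM after IFN-gamma. In the ranking of all genes by FPKM it moved from place 4520 to 95 in WT and from 4534 to 75 in KO cells. Bone marrow-derived WT cells had 19.91 FPKM before and 24.64 FPKM after IL-4, and KO cells 22.68 and 29.42 FPKM. Both IFN-gamma libraries lie far above the other 6, which span 12.73 to 29.42 FPKM. Irf1 rose with IFN-gamma by 5.68 on the log2 scale (SE 0.12, edgeR adjusted p = 8.64e-06) and with IL-4 by 0.38 (SE 0.06, edgeR adjusted p = 0.00108).

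Irf8, which with PU.1 sets the identity of monocytes and macrophages, came close behind. Before IFN-gamma, WT and KO cells had 71.38 and 64.13 FPKM, and afterwards 589.71 and 633.05 FPKM. Unlike Irf1 it started from a high level, so that its fold was 8.26 in WT and 9.87 in KO. Bone marrow-derived WT and KO cells had 89.63 and 98.16 FPKM untreated and 74.98 and 79.08 FPKM with IL-4, so that both IL-4 libraries were the lower ones. Irf8 rose with IFN-gamma by 3.27 (SE 0.12, edgeR adjusted p = 3.29e-05). With IL-4 it fell by 0.25 on the log2 scale (SE 0.05, edgeR adjusted p = 0.00533), a call lost when all 8 libraries were fitted together (adjusted p = 0.142).

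Irf2, the antagonist of IRF1, responded in the same direction on a smaller scale. Peritoneal WT cells had 19.95 FPKM without and 46.47 FPKM with IFN-gamma, and KO cells 21.53 and 46.97 FPKM. Bone marrow-derived WT cells had 38.22 FPKM without and 46.11 FPKM with IL-4, and KO cells 37.15 and 46.08 FPKM. The stimulated libraries of both cell types therefore ended within 46.08 to 46.97 FPKM, although the untreated ones differed. Irf2 rose by 1.27 with IFN-gamma (SE 0.10, edgeR adjusted p = 0.000377) and by 0.33 with IL-4 (SE 0.05, edgeR adjusted p = 0.00123).

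Irf5, which drives inflammatory cytokine genes downstream of Toll-like receptors, was the highest IRF in every untreated and every IL-4 library. It stood at 143.21 and 117.94 FPKM in untreated WT and KO peritoneal macrophages, and at 239.63 and 242.83 FPKM after IFN-gamma. With IL-4, bone marrow-derived WT cells went from 184.66 to 217.8 FPKM and their KO counterparts from 193.37 to 236.45 FPKM. Each stimulated library was above its untreated partner. It rose by 1.03 with IFN-gamma (SE 0.13, edgeR adjusted p = 0.00208) and by 0.31 with IL-4 (SE 0.04, edgeR adjusted p = 0.000905; 0.154 with all 8 libraries in 1 fit). The annotation places 1043 bases of the Irf5 locus inside that of its neighbour Tnpo3, at 19.89 to 21.98 FPKM, and no source used here says whether the counting used strand. Its abundance-weighted transcript length ran from 2045.72 bases in untreated KO peritoneal to 2149.15 bases in untreated KO bone marrow-derived cells. The IFN-gamma-treated KO peritoneal library had 2129.27 bases. The mixture of its transcripts thus differed somewhat between libraries.

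Irf3, the constitutive factor behind the first wave of interferon-beta, was the flattest member. It ranged from 20.82 FPKM (KO, IFN-gamma) to 26.38 FPKM (WT, untreated) over the 8 libraries, a span of 1.27-fold. Both IFN-gamma libraries were below their untreated partners, by -0.25 in WT and -0.20 in KO cells on the log2(FPKM + 1) scale. It passed no test (edgeR adjusted p = 0.345 for IFN-gamma and 0.147 for IL-4).

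Irf4, the factor of the alternative programme, went opposite ways with the cytokines and was the lowest member in every library. In bone marrow-derived macrophages it had 31 counts (0.31 FPKM) in untreated WT and 61 counts (0.61 FPKM) in untreated KO cells, against 738 counts (7.6 FPKM) and 776 counts (7.74 FPKM) with IL-4. Both IL-4 libraries lie above all others. In peritoneal macrophages it had 44 counts (0.86 FPKM) in untreated WT and 64 counts (1.24 FPKM) in untreated KO cells, and 15 counts (0.29 FPKM) and 21 counts (0.4 FPKM) after IFN-gamma. Irf4 rose with IL-4 by 4.10 (SE 0.17, edgeR adjusted p = 1.94e-07), about as far on the log2 scale as Irf7 with IFN-gamma. With IFN-gamma it fell by 1.5 on the log2 scale (SE 0.27, edgeR adjusted p = 0.00909), a call that DESeq2 did not make (adjusted p = 0.196). At a mean of 0.70 FPKM it was too low in peritoneal cells to enter the counts of 2-fold ratios.

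Irf9, the DNA-binding part of ISGF3, rose with IFN-gamma. Peritoneal WT cells had 11.14 FPKM before and 19.95 FPKM after it, and KO cells 10 and 26.72 FPKM. Bone marrow-derived WT cells had 33.17 FPKM untreated and 26.97 FPKM with IL-4, and KO cells 34.27 and 35.24 FPKM. The WT IL-4 library was the lowest of those 4. The IFN-gamma term was 1.23 (SE 0.17, edgeR adjusted p = 0.00325) and the IL-4 term -0.07 (edgeR adjusted p = 0.531).

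Irf7, the amplifier of type I interferon production, had the widest gap between genotypes in any pair. In peritoneal macrophages it had 85 counts (4.3 FPKM) in untreated WT, 66 counts (3.26 FPKM) in untreated KO, 541 counts (26.79 FPKM) in IFN-gamma-treated WT and 2652 counts (132.56 FPKM) in IFN-gamma-treated KO cells. Untreated bone marrow-derived WT and KO macrophages already had 83.51 and 75.23 FPKM. With IL-4 the WT library stayed at 83.15 FPKM and the KO library reached 136.83 FPKM. The highest library of each cell type was thus the stimulated KO library. Irf7 rose with IFN-gamma by 4.13 (SE 0.60, edgeR adjusted p = 0.00386). Its IL-4 term of 0.48 (SE 0.15, edgeR adjusted p = 0.0446) rests on the KO pair, and DESeq2, limma, another scaling and the fit of all 8 libraries left it without a call (adjusted p = 0.0527 to 0.875).

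**Figure D2:**
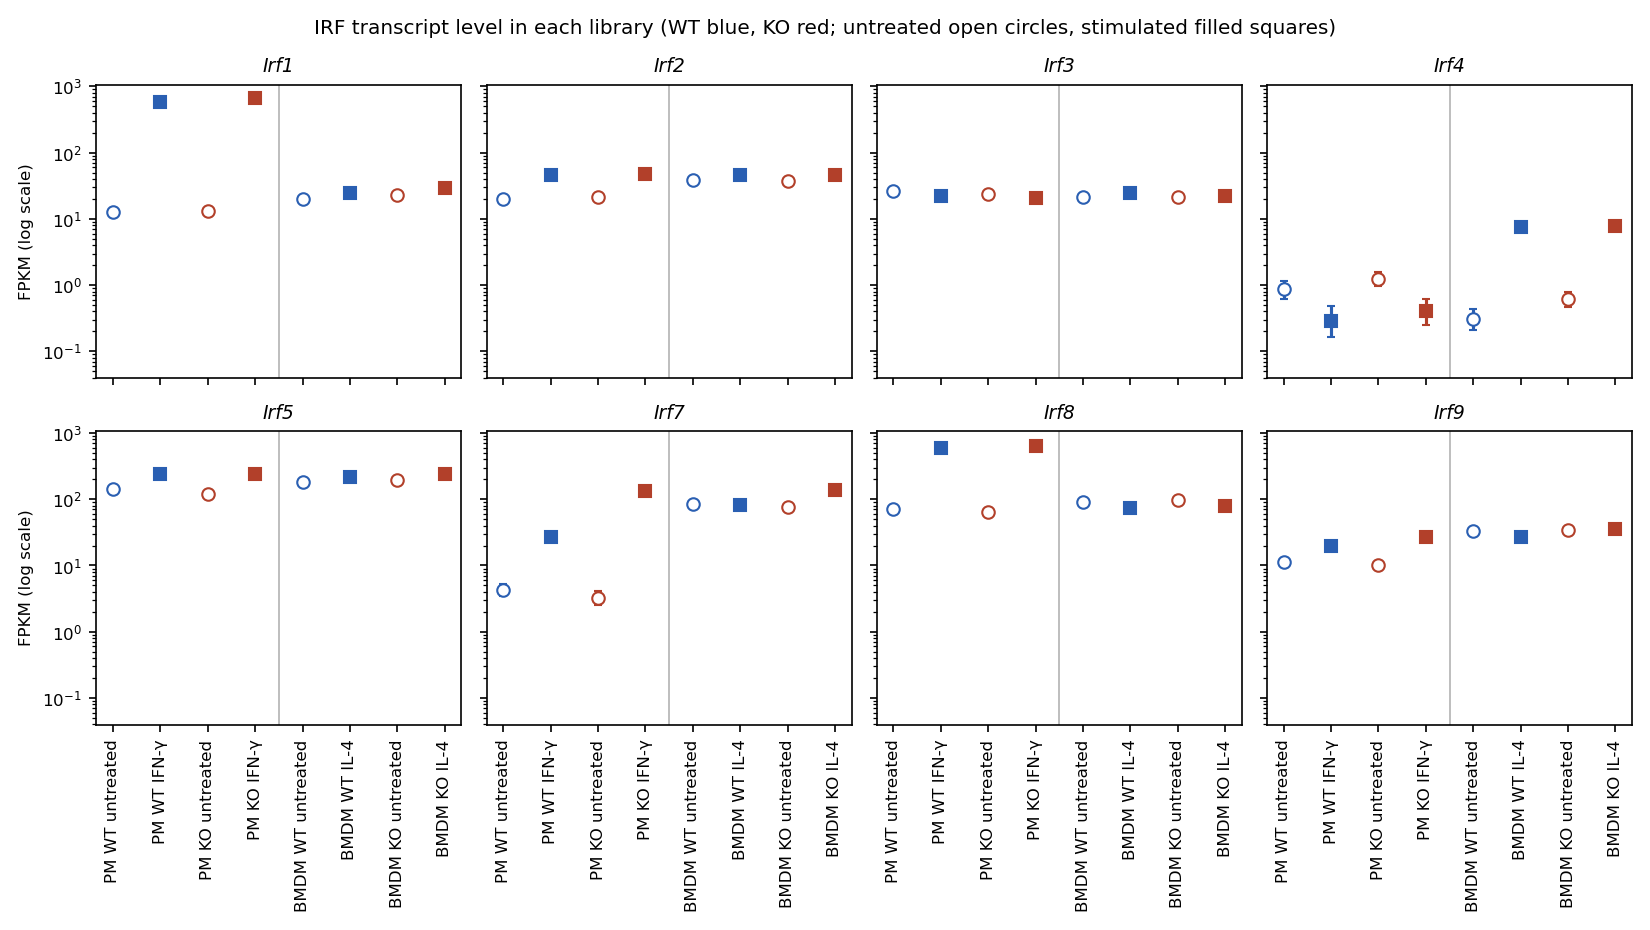
FPKM of each IRF gene (vertical axis, log scale) in each of the 8 libraries (horizontal axis; PM, peritoneal, and BMDM, bone marrow-derived macrophages), 1 point per library, with 95% Poisson bars for counting error only. Irf1 and Irf8 reach 580.16 to 660.46 FPKM in the IFN-gamma libraries, Irf4 is above 7 FPKM with IL-4 only, and Irf3 stays within 20.82 to 26.38 FPKM.

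In the edgeR fits, IFN-gamma raised 6 of the 8 members (Irf1, Irf2, Irf5, Irf7, Irf8 and Irf9) and lowered Irf4, in a fit where 17.2% of all genes rose and 14.9% fell. IL-4 raised 5 (Irf1, Irf2, Irf4, Irf5 and Irf7) and lowered Irf8, where 12.0% of all genes rose and 9.23% fell. The Irf7 call rests on the KO pair, and with all 8 libraries in 1 fit 3 members rose (Irf1, Irf2 and Irf4) and 0 fell. The median change of the members was 1.25 with IFN-gamma and 0.32 with IL-4 on the log2 scale, against -0.01 and 0.00 over all genes tested. By size alone, 4 of 7 members compared were at least 2-fold higher after IFN-gamma in WT cells (5.94% of all genes compared) and 6 of 7 in KO cells (7.27%). The additional 2 in KO cells were Irf5, at 1.04 against 0.74 in WT, and Irf9, at 1.33 against 0.79, both on the log2(FPKM + 1) scale. With IL-4, Irf4 was the 1 of 8 at least 2-fold higher in each genotype (1.27% of all genes in WT and in KO cells). The median of all genes in the KO response to IFN-gamma was -0.11 on this scale, and centring on the median left each member's direction in the IFN-gamma responses and the counts of 2-fold members as they were.

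**Figure D3:**
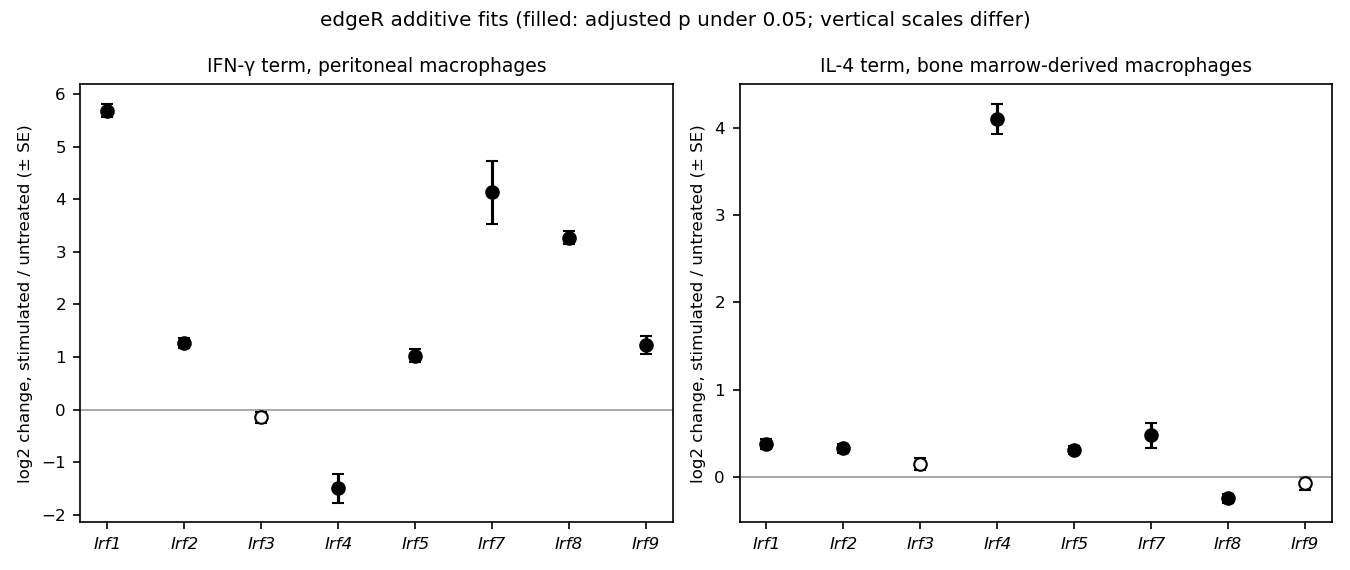
Change of each IRF gene with the stimulus (vertical axis, log2, edgeR additive fit over 4 libraries, bars ± SE) for IFN-gamma in peritoneal and IL-4 in bone marrow-derived macrophages, filled where the adjusted p was under 0.05. Irf1, Irf7 and Irf8 lead on the left at 5.68, 4.13 and 3.27, and Irf4 stands alone on the right at 4.10; the vertical scales differ.

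Between KO and WT cells most members stood close, and Irf7 had the largest ratio of the 8 in both stimulated pairs. In IFN-gamma-treated peritoneal macrophages its KO level was 4.95 times the WT level (132.56 and 26.79 FPKM), a log2 FPKM ratio of 2.31 with a 95% counting interval of 2.17 to 2.44. In IL-4-treated bone marrow-derived macrophages it was 1.65 times the WT level (136.83 and 83.15 FPKM), a log2 ratio of 0.72 with an interval of 0.65 to 0.78. In both untreated pairs the KO level was the lower, with log2 ratios of -0.40 (interval -0.89 to 0.08) and -0.15 (-0.22 to -0.08). Irf9 was also higher in KO in both stimulated pairs, at a smaller size. Its log2 ratios were 0.42 (0.26 to 0.59) with IFN-gamma and 0.39 (0.28 to 0.49) with IL-4. Untreated, they were -0.16 (-0.41 to 0.08) in peritoneal and 0.05 (-0.05 to 0.14) in bone marrow-derived cells, and both intervals include 0. These intervals cover counting error only and say nothing of the spread between cultures.

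Irf1 had log2 FPKM ratios of 0.04 (-0.20 to 0.27) in untreated and 0.19 (0.15 to 0.22) in IFN-gamma-treated peritoneal macrophages, and of 0.19 (0.06 to 0.32) in untreated and 0.26 (0.14 to 0.37) in IL-4-treated bone marrow-derived ones. The first of these includes 0, and it falls just below 0 when libraries are centred on the median ratio. Irf8 ran from -0.15 to 0.13, Irf5 from -0.28 to 0.12, Irf3 from -0.15 to 0.01 and Irf2 from -0.04 to 0.11 over the 4 pairs. Irf4 ran from 0.03 to 0.98, with KO the higher in each pair, but its intervals included 0 except in untreated bone marrow-derived cells, where 61 against 31 counts gave 0.98 (0.33 to 1.65). In IFN-gamma-treated cells 1 of 7 members, Irf7, was at least 2-fold higher in KO (1.56% of all genes compared), and in the other 3 pairs none of the members compared was, where 0.356%, 0.156% and 0.385% of all genes were.

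No member was called for genotype. The edgeR genotype term called 0 of 8 in peritoneal macrophages, where 0.0332% of all genes were called either way, with 1 member (Irf7) at an unadjusted p under 0.05, and DESeq2 and limma called 0 as well. Irf7 had a genotype term of 1.45 (SE 0.57, edgeR adjusted p = 0.351; adjusted p = 0.166 to 1.00 over the alternatives); its untreated and IFN-gamma pairs differ in sign, and an additive fit counts that as residual spread. In bone marrow-derived macrophages edgeR called 0 of 8, where 5.19% of all genes were called, with 2 members (Irf1 and Irf9) at an unadjusted p under 0.05, and DESeq2 and limma called 0. Irf1 came nearest at 0.23 (SE 0.06, edgeR adjusted p = 0.0548), and without the filter on low counts Irf1, Irf7 and Irf9 passed (adjusted p = 0.00937, 0.00149 and 0.00875). Over all 4 KO and WT pairs, a limma fit called 0 of 7 members, where 0.00993% of genes were called, with 1 (Irf1) at an unadjusted p under 0.05: its mean difference was 0.16 (SE 0.06, limma adjusted p = 0.577). A test of whether the genotype effect differs between the cell types, from edgeR on all 8 libraries, called 0 of 8 members, with 0 at an unadjusted p under 0.05, where 0.127% of all genes were called; Irf7 came nearest at 1.32 (edgeR adjusted p = 0.39), and no other tool was run for it.

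**Figure D4:**
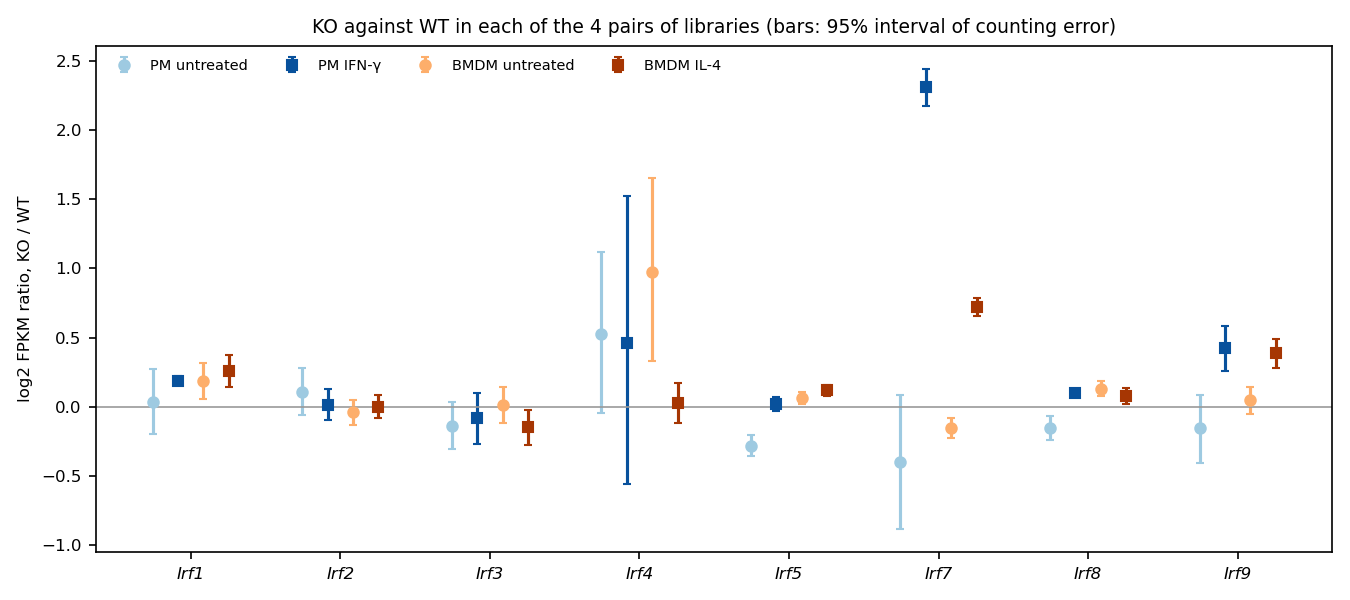
log2 ratio of FPKM, KO over WT (vertical axis), for each IRF gene in the 4 pairs of libraries, with 95% intervals of counting error. Irf7 stands at 2.31 in IFN-gamma-treated peritoneal and 0.72 in IL-4-treated bone marrow-derived macrophages, above 0 where its untreated pairs are below 0.

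Set against each other, the KO response minus the WT response to IFN-gamma was 2.58 for Irf7 on the log2(FPKM + 1) scale, from 4.97 in KO and 2.39 in WT cells. It was 0.55 for Irf9, 0.30 for Irf5, 0.25 for Irf8, 0.15 for Irf1, 0.05 for Irf3 and -0.09 for Irf2. Irf7 alone passed 2-fold, as did 1.51% of all genes compared. For IL-4 the difference was 0.86 for Irf7 and 0.33 for Irf9, and between -0.27 (Irf4) and 0.07 (Irf1) for the other 6; no member was higher by 2-fold (0.413% of all genes were). With 1 library per group this difference cannot be tested. Irf7 and Irf9 led in both cell types, but the KO and WT libraries compared before and after stimulation are the same ones.

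Genes that ISGF3 switches on, a list of 20, had higher levels in KO cells in the same 2 stimulated pairs as Irf7 and Irf9. In IFN-gamma-treated cells 19 of 19 compared were higher in KO than in WT. Of these, 18 were at least 2-fold higher, as were 1.56% of all genes compared. The median log2 ratio was 2.35, against -0.02 over all genes. With IL-4, 20 of 20 were higher in KO and 13 at least 2-fold, as were 0.385% of all genes compared. The median was 1.07 against 0.01. Untreated, the medians were 0.09 in peritoneal and 0.01 in bone marrow-derived cells. Ifit2, an antiviral protein, was at 47.98 FPKM in WT and 202.68 in KO cells after IFN-gamma, and at 4.11 and 14.67 FPKM with IL-4. The response of the list to IL-4 had a median of -0.63 in WT cells, with 0 of 20 above 0, and 0.33 in KO cells, with 19 of 20 above 0. The edgeR IL-4 term, which averages both genotypes, called 0 of the 20, where 12.0% of all genes rose and 9.23% fell. For that term 3 had an unadjusted p under 0.05, and DESeq2 and limma called 0 each. The IFN-gamma term called 19 up, where 17.2% of all genes rose. For genotype edgeR called Ifit2 in peritoneal cells (2.02, edgeR adjusted p = 0.0493), where 0.0332% of all genes were called either way. It called Oas1a in bone marrow-derived cells (0.60, edgeR adjusted p = 0.0259), where 1.51% of all genes rose. In the same 2 fits, 18 and 15 of the 20 had an unadjusted p under 0.05. DESeq2 called 2 and 0, and limma 0 and 0.

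**Figure D5:**
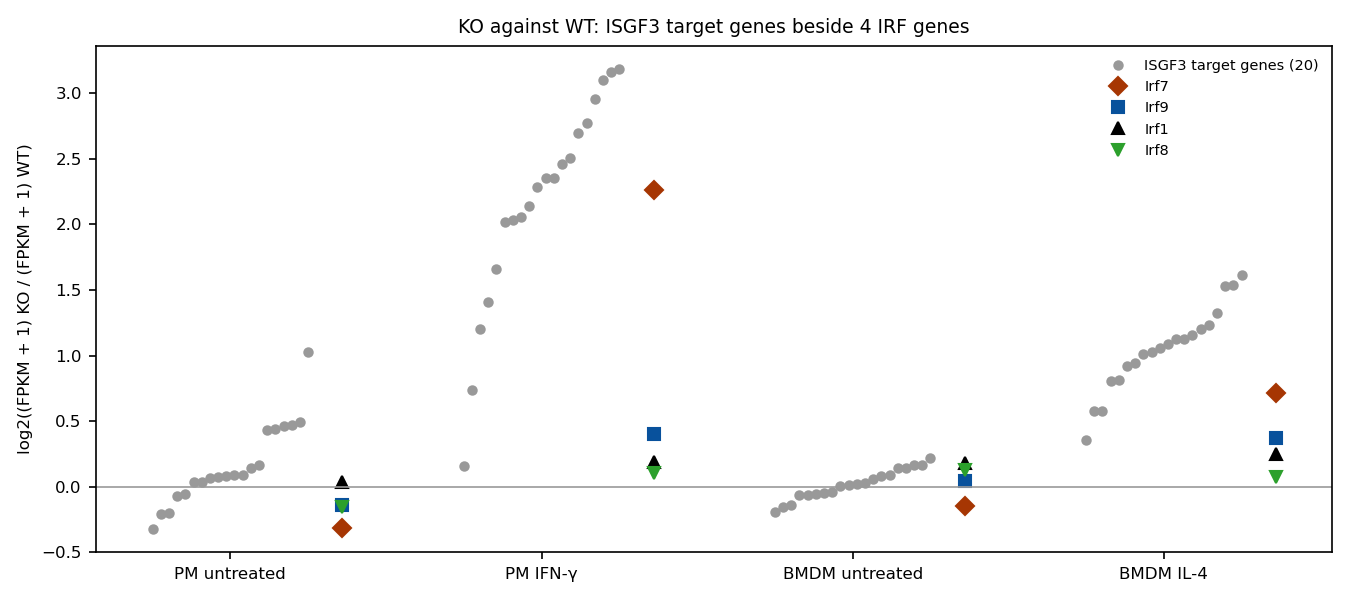
log2((FPKM + 1) ratio), KO over WT (vertical axis), of the 20 ISGF3 target genes (grey, sorted within each pair) and of Irf7, Irf9, Irf1 and Irf8 in the 4 pairs of libraries. Grey points centre near 0 in both untreated pairs and on 2.35 and 1.07 in the stimulated ones (medians over the 19 and 20 genes at or above a mean of 1 FPKM), where Irf7 stands at 2.26 and 0.71.

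Stat2, a partner of IRF9 in ISGF3, was read beside them. It was at 40.64 FPKM in WT and 82.45 in KO cells after IFN-gamma, and at 25.04 and 41.7 FPKM with IL-4. Interferon-beta RNA was near absent at the hours sampled, and its protein was not measured in these libraries. Ifnb1, chosen here after its values were seen, had 3 counts in IFN-gamma-treated KO cells (exact Poisson 95% interval 0.619 to 8.77). In IL-4-treated KO cells it had 6 (2.2 to 13.1). It had 2 counts in untreated WT bone marrow-derived cells and was at 0 in the other 5 libraries, where a count of 0 has an upper limit of 3.69. Ifna5, also chosen after its values were seen, had 1 count in IL-4-treated KO cells and was at 0 in all other libraries. Macrophage marker sums were 7426 FPKM in WT and 6072 in KO peritoneal cells after IFN-gamma, and 10096 and 8399 untreated. In bone marrow-derived cells they were 11423 in WT and 11443 in KO with IL-4, and 13927 and 14041 untreated. Lyz2 and Cd68 made up most of each macrophage sum. After IFN-gamma, Mertk alone of the macrophage markers was higher in KO (84.98 FPKM) than in WT cells (55.84 FPKM). Fibroblast and mesothelial marker sums were 101.3 FPKM in WT and 79.1 in KO peritoneal cells after IFN-gamma, and 125.3 and 114.14 untreated. In bone marrow-derived cells the latter sums were 352.11 and 171.13 FPKM with IL-4, and 374.18 and 199.31 FPKM untreated. Of those 6 markers Col1a1, Col1a2 and Col3a1 carried the difference in bone marrow-derived cells, and Msln and Upk3b were at 0. Their part in these differences was not tested.

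Among receptors and signalling proteins of the interferon pathways, IFN-gamma raised 13 of 18 genes and lowered none, where 17.2% of all genes rose and 14.9% fell, among them Socs1 (5.43), Socs3 (4.53) and Usp18 (3.64). Socs1 and Socs3 are feedback inhibitors of JAK kinases. IL-4 raised 4 of the 18, where 12.0% of all genes rose: Socs1 by 3.92, Jak2 by 1.24, and Ifngr2 and Ptpn1 by 0.23 each. The edgeR genotype terms called 0 of 18 in both cell types, with 5 and 3 at an unadjusted p under 0.05, and DESeq2 and limma called 0.

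Sensors, adaptors and kinases that lie upstream of IRF3, IRF5 and IRF7 rose in 16 of 28 cases with IFN-gamma and fell in 4, against 17.2% and 14.9% of all genes, so that the share that fell is near that of all genes. Zbp1, a sensor of Z-form nucleic acid, rose by 6.68, Tlr9, the receptor for CpG DNA, by 3.87, and Sting1, the adaptor of cytosolic DNA sensing, by 2.99; Ifih1, the RNA sensor MDA5, rose by 2.23. Ticam1, Tlr7, Slc15a4 and Irak1 fell, Ticam1 by 1.00 on the log2 scale. With IL-4, 4 rose and 3 fell, shares near the 12.0% and 9.23% of all genes, and DESeq2 called 2 and 1. Zbp1 rose by 0.68 and Tlr4 by 0.59. The Zbp1 term rests mainly on the KO pair, at 14.48 and 33.22 FPKM against 15.21 and 17.98 FPKM in WT cells. Of IRF partners and modifiers, 7 of 15 rose with IFN-gamma and 3 fell, against 17.2% and 14.9% of all genes. The share that fell is not far from that of all genes. Batf2 rose by 6.71, Trim21 by 1.99, Batf3 by 1.81 and Batf by 1.33. Batf3, a partner of IRF4 and IRF8, also rose by 3.43 with IL-4. This was the largest of 6 rises in 14 tested partners, where 12.0% of all genes rose.

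Lists of genes linked to IRF1, IRF8, IRF4 and IRF5 were read beside the same shares of all genes. With IFN-gamma 17.2% of all genes rose and 14.9% fell, and with IL-4 12.0% rose and 9.23% fell. Of IRF1-linked genes 19 of 19 tested rose with IFN-gamma, with Nos2 (9.41), Cxcl9 (9.20), Gbp2 (8.61) and Ciita (8.27) in front. For genotype, edgeR called Cxcl9 and Nos2 higher in KO peritoneal cells (DESeq2 2 genes, limma 0), where 0.0332% of all genes were called either way. In bone marrow-derived cells it called 4 of 17 higher, Gbp2, Psmb10, Psmb8 and Tap2, where 1.51% of all genes rose, and DESeq2 and limma called 0. Of the IRF8-linked list 4 of 12 rose with IFN-gamma, 2 fell (Il18 and Ncf4), a share near that of all genes, and 6 were not called; Fcgr1, the high-affinity IgG receptor, rose by 3.95. Of a list that joins IL-4 receptor and STAT6 signalling with IRF4-linked genes, 10 of 16 rose with IL-4, led by Retnla (listed at 0 FPKM in both untreated libraries, and at 20.97 FPKM in WT and 10.65 in KO with IL-4), Arg1 (7.04), Pdcd1lg2 (5.54) and Mgl2 (4.84). With IFN-gamma, where Irf4 fell, 8 of 14 of the list rose and 2 fell, the latter a share near that of all genes. Pdcd1lg2 rose by 6.25, Ccl22 by 5.42 and Arg1 by 2.57, each from a low level. Untreated, Pdcd1lg2 stood at 0.08 (WT) and 0.24 FPKM (KO), and after IFN-gamma at 10.76 and 12.46 FPKM. Ccl22 was at 0.1 FPKM in both untreated libraries, and at 3.15 (WT) and 5.49 FPKM (KO) afterwards. Arg1 stayed low in all peritoneal libraries. Its WT pair read 0.63 FPKM untreated and 3.43 FPKM treated, and its KO pair 0.06 and 0.49 FPKM. In KO bone marrow-derived cells edgeR called 5 of the 16 lower, among them Arg1 (-0.90) and Retnla (-0.98), where 3.68% of all genes fell; DESeq2 called 2 lower and limma 3, while Irf4 itself was at 7.6 FPKM in WT and 7.74 in KO cells with IL-4. Of the IRF5-linked cytokines 3 of 7 reached the fit; Tnf rose by 4.64 with IFN-gamma and fell by 0.68 on the log2 scale with IL-4.

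Over the 8 libraries the levels of the members fell into few shapes. On log2(FPKM + 1), Pearson's r was 0.99 between Irf1 and Irf8, 0.96 between Irf7 and Irf9, and 0.95 between Irf2 and Irf5. Irf2 and Irf5 also ran with Irf7 and Irf9, at r from 0.77 (Irf5 and Irf9) to 0.90 (Irf2 and Irf7). These are descriptions over 8 libraries that share cell types and treatments, with no p. Among the 7899 genes whose mean reached 5 FPKM, the profile most like that of Irf8 was Cxcl10 (r = 0.999), followed by Calhm6 and Batf2. Irf1 was most like Ciita (0.999), with Hk2 and Rmdn3 after it, and Irf2 most like Ripk3 (0.996), with Tnip3 and H2-Q5. Irf7 was nearest to Oas1g (0.991), Rtp4 and Ikzf1, and Irf9 to Uba7 (0.997), Coro2a and D17H6S56E-5. Irf5 was nearest to Cmtm7 (0.979), Htt and Tspo, and Irf4 to Ilk (0.988), Plekha3 and Rps6kc1.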

How the data were processed

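The authors deposited 1 table per library, with expected counts, FPKM values and abundance-weighted lengths of genes. The submitters' processing notes name Bowtie2 2.2.5, RSEM (version not given in the sources used here) and mm10. The deposited expected counts are estimates and were rounded to whole numbers for the fits; 70.1% to 77.8% were whole within 0.005. For the FPKM values deposited by the authors, no scaling between libraries beyond library size is recorded. Genes not listed in a table were set to 0; 18076 of 18125 identifiers were named from RefSeq (GRCm38.p6), 42 from the files and 7 had no name. Additive fits (genotype and stimulus) used edgeR 4.0.16 with TMM scaling and filterByExpr in R 4.3.3. Only the stimulus term of the peritoneal fit was tried on simulated data, which held no genotype changes. DESeq2 1.42.0 and limma 3.58.1 served as alternatives, and limma also for the mean of the 4 differences between KO and WT in log2(FPKM + 1). The common coefficient of variation was 10.4% and 4.57%. Further alternatives were RLE scaling, no filter on low values, all 8 libraries in 1 fit, a pseudocount of 0.1, median centring and log2(CPM + 1). Ratios of libraries used a pseudocount of 1 and genes averaging 1 FPKM or more within the cell type. All 8 members are named; from lists, up to 4 called genes of largest change, and by likeness the 3 highest r per member whose range was at least 2-fold (Irf3 was below it). Stat2, Ifnb1, Ifna5 and genes named to complete a small count were chosen after their values were seen. Some genes of the lists are not reported here by name. Members, lists and tests were chosen with earlier results of these data known, and the comparison of genotype effects between cell types was added later. Of the lists, 9 interferon and IL-12 cytokine genes and 6 markers matched no gene name in the deposited tables and were not analysed here. Intervals came from scipy 1.17.1, tables from pandas 2.3.3 and numpy 2.4.6, and plots from matplotlib 3.10.9, under Python 3.11.15.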

Additional observations from a re-analysis of the deposited data

Results flagged for a closer look

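The responses of Irf7 to IL-4 were -0.01 in WT and 0.85 in KO bone marrow-derived macrophages on the log2(FPKM + 1) scale, a difference of 0.86 that was not tested. They are listed for their opposite signs, but the WT ratio has a counting interval of -0.08 to 0.07 on the log2 FPKM scale and turns positive (0.03) under median centring. The responses of Irf9 were -0.29 in WT and 0.04 in KO cells, a difference of 0.33 that was not tested, and the KO ratio has a counting interval of -0.06 to 0.14, so opposite signs are not shown for it. Each rests on 1 library per group. Irf2 was higher in KO cells in both peritoneal pairs (0.10 and 0.02) and lower in both bone marrow-derived pairs (-0.04 and -0.00092), though the counting intervals of all 4 ratios include 0, and the edgeR fit of all 8 libraries put the difference of its genotype effects at 0.0639 (adjusted p = 0.784).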

How the results depend on the processing

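Every group holds 1 replicate, so that no pairing by replicate number was possible and no replicate could be left out. The fit over 4 differences instead matches KO and WT libraries by cell type and treatment. Of 478 values of single members recomputed under the alternatives, 465 kept their direction and their side of the threshold (or, untested, moved by less than 1 on the log2 scale), and no called value or 2-fold ratio reversed; untested ratios near 0, such as Irf1 between genotypes in untreated peritoneal cells, changed sign with scaling. With all 8 libraries in 1 edgeR fit, the members called for IL-4 numbered 3 in place of 6 (Irf1, Irf2 and Irf4 were called); the cause was not tested. Without the low-count filter, 3 members in place of 0 were called for genotype in bone marrow-derived macrophages; the cause was not tested. Over all genes, the 4 genotype calls in peritoneal macrophages became 52 without that filter, 17 with RLE, 77 in the joint fit, 39 by DESeq2 and 0 by limma, and the 669 in bone marrow-derived macrophages 1253 without it, 147 in the joint fit, 155 by DESeq2 and 245 by limma. The 3873 calls for IFN-gamma became 2088 by DESeq2, and the 2731 for IL-4 became 1063 by DESeq2 and 1029 in the joint fit. The IL-4 response of Irf4 depends on the scale: 2.71 in WT and 2.44 in KO cells with a pseudocount of 1, and 4.23 and 3.46 with 0.1. In peritoneal libraries 1 FPKM stood for about 29 to 30 counts (medians over genes), which limits the precision for Irf4.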
